A study of Mus musculus with 61 samples.

Results

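After doxorubicin, the oocytes of the mouse ovary did not all carry raised transcripts of Cdkn1a, the gene for the cell-cycle inhibitor p21. This section describes the 16 doxorubicin oocytes of a series of 61 single-cell libraries, set into the 12 with raised Cdkn1a and the 4 without. The sets were chosen by Cdkn1a itself: a cell belonged to the high-Cdkn1a set where its Cdkn1a CPM (its count scaled to a total of 1000000 counts in that cell) was above the highest value among the 16 control oocytes, and to the low-Cdkn1a set otherwise. Cdkn1a values therefore only describe the choice, and the question asked of the data is how far the other genes followed it.

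The ovaries were those of CD-1 mice, an outbred stock, of wild-type genotype at postnatal day 5, taken 6 hours after an intraperitoneal injection of solvent (control) or of doxorubicin. Doxorubicin is an anti-cancer drug that poisons topoisomerase II and breaks DNA. The unit of the dose is unclear in the labels and the dose is left out. The other libraries of the series are granulosa cells, the somatic cells around the oocyte: 16 from control and 13 from doxorubicin ovaries. No animal, litter or culture is named for any cell, so each set counts as 1 sample and no difference was tested. Intervals are 95% intervals that cover counting error only. Those beside the median of a gene list are medians of its genes' own lower and upper limits, not an interval of that median. The reads carry no molecular identifiers and were amplified by PCR, so reads are not separate molecules.

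The p53 family (p53, p63 and p73) consists of transcription factors that respond to DNA breaks and bind related DNA sites. In the small oocytes of the newborn ovary p63 is the member best known for deciding whether a damaged oocyte survives, and the death genes Bbc3 (PUMA) and Pmaip1 (NOXA) are its classic targets there. Cdkn1a and Mdm2, which encodes the ligase that marks p53 for degradation, are common readouts of the same factors in many tissues. JNK kinases, named in the title of the series, signal stress and phosphorylate Jun.

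The base sequence through which p53-family proteins contact DNA consists of a pair of decamers, and Cdkn1a and Ccng1 carry such a pair close to their starts in the RefSeq promoter table of GRCm38.p6, the patch of the mm10 build that the submitters' processing notes name. They are shown because theirs were the only 2 of the 44 promoter windows of the p53-family targets, Cdkn1a included, with such a pair. Cdkn1a defined the sets. Ccng1 (cyclin G1, a p53-induced regulator of MDM2) was among the targets whose level varied together over these cells. Each line runs 5′ to 3′ on the gene's strand, and capitals mark 20 bases that match 2 adjoining p53 consensus decamers with at most 1 mismatch. The Cdkn1a stretch is chr17:29090729-29090978 on the plus strand, directly upstream of the gene (chr17:29090979-29100722), with the match 51 to 32 bases before the gene. The Ccng1 stretch is chr11:40755310-40755536 on the minus strand, upstream of the gene (chr11:40748552-40755309), with the match 172 to 153 bases before the gene.
Cdkn1a: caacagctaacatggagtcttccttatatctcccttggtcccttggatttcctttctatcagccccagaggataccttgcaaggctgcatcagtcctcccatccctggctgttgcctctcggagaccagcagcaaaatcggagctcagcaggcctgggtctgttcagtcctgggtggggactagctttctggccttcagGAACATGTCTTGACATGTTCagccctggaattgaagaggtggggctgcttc
Ccng1: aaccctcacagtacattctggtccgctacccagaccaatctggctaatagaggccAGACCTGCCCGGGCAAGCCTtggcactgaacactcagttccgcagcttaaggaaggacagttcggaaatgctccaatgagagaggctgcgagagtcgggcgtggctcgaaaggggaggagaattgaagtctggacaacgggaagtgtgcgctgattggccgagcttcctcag

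Such a match stood in 25 of 32851 promoter windows of 250 bases (0.0761%) and in 2 of the 44 windows of the 32 p53-family targets found in the table, Cdkn1a included. A single decamer was present in 2341 of all windows (7.13%) and in 12 of those 44. The consensus decamer is its own reverse complement, so both strands were read at once, and each pair holds a single decamer that is counted here too. A match is a description of the letters and no binding was measured.

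Total counts per doxorubicin oocyte ran from 8899079 to 13971485, and the sets did not differ in depth beyond their spread: the median was 11511689 in the low-Cdkn1a set and 11012307 in the high-Cdkn1a set, against 10941952 in control oocytes. After each cell was thinned to 1000000 counts, 11267 to 12020 genes were detected in the low set and 11020 to 13003 in the high set. Oocyte markers dominated in both sets. The summed CPM of 21 oocyte markers lay between 29010 and 45910 in the low set and between 20010 and 71320 in the high set, and in every doxorubicin oocyte it exceeded the granulosa and stroma sums. Granulosa markers stood out in 3 oocytes of the high set, at 2736 CPM in oocyte 11, 3537 in oocyte 9 and 2277 in oocyte 12 (numbers as in the labels), compared with at most 782 in a control oocyte and 94.8 in the low set. Oocytes 9 and 12 also had the most stroma transcripts, 1882 and 1468 CPM. Raw data of oocyte 4 were lost according to the series text, but its column of counts was used.

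Cdkn1a ranged from 0.0793 to 42.0 CPM in the 16 control oocytes. In the low set it was 7.90 CPM in oocyte 7, 15.6 in oocyte 15, 19.9 in oocyte 16 and 33.5 in oocyte 2. In the high set the lowest, median and highest values were 42.7, 146 and 289 CPM. The summed counts gave 15.7 CPM in control oocytes, 19.8 CPM (18.6 to 21.2) in the low set and 169 CPM (167 to 172) in the high set. All 4 low-set oocytes thus lay inside the control range.

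The cut fell into a dense stretch of values. Just outside was oocyte 2 with 33.5 CPM (30.5 to 36.7), and just inside were oocyte 8 with 42.7 CPM (38.9 to 46.7), oocyte 13 with 50.2 CPM and oocyte 14 with 50.4 CPM. The counting interval of oocyte 8 overlaps that of the control oocyte that set the cut (38.1 to 46.1 CPM). The next cell, oocyte 6, was at 103 CPM, so that 9 of the 12 lay at more than 2 times the highest control. The plot of Cdkn1a by cell shows this gap.

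**Figure D1:**
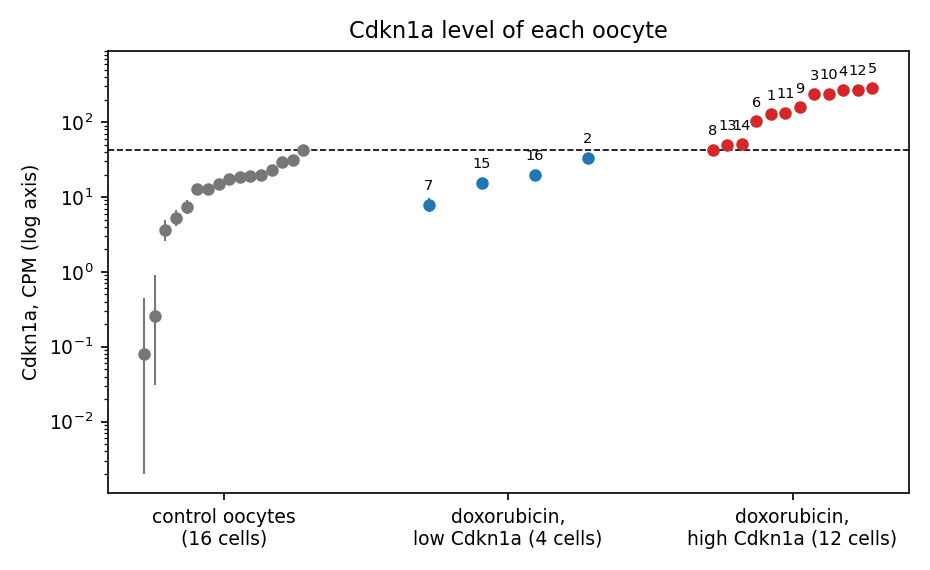
Cdkn1a in CPM (log axis) for the 16 control, 4 low-Cdkn1a and 12 high-Cdkn1a oocytes, sorted within each group. Points are cells, bars are 95% Poisson intervals of the count, numbers are doxorubicin oocyte numbers, and the dashed line is the highest control oocyte at 42.0 CPM. Oocytes 8, 13 and 14 lie just above the line and the other 9 high-set cells between 103 and 289 CPM.

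The remaining targets of the p53 family followed Cdkn1a in most cells, with exceptions on both sides. Their list held 40 genes without Cdkn1a, and the control oocytes had sums of 1497 to 1958 CPM. Sums above that range were found in 10 of 12 high-Cdkn1a oocytes (83.3%) and in 1 of 4 low-Cdkn1a oocytes (25%). Cells are not replicates of a set here, so no interval is given for these shares. The low-set values were 1407 CPM in oocyte 16, 1570 in oocyte 15, 1720 in oocyte 2 and 2860 in oocyte 7. Over the high set the lowest, median and highest sums were 1717, 2834 and 5246 CPM.

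The exceptions were specific cells. Oocyte 7 had the least Cdkn1a of all doxorubicin oocytes, 97 counts or 7.90 CPM, and yet a target sum slightly above the median of the high set. Oocytes 8 and 14, which were just inside the cut, had sums of 1717 and 1773 CPM, within the control range. Oocyte 13 had the same Cdkn1a level as oocyte 14 but a sum of 2708 CPM. Oocyte 12 carried 269 CPM of Cdkn1a, the second highest value, with a sum of 1973 CPM, barely past the highest control oocyte. Without Mdm2, the largest part of the high-set sum, the same cells were above the control range.

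**Figure D2:**
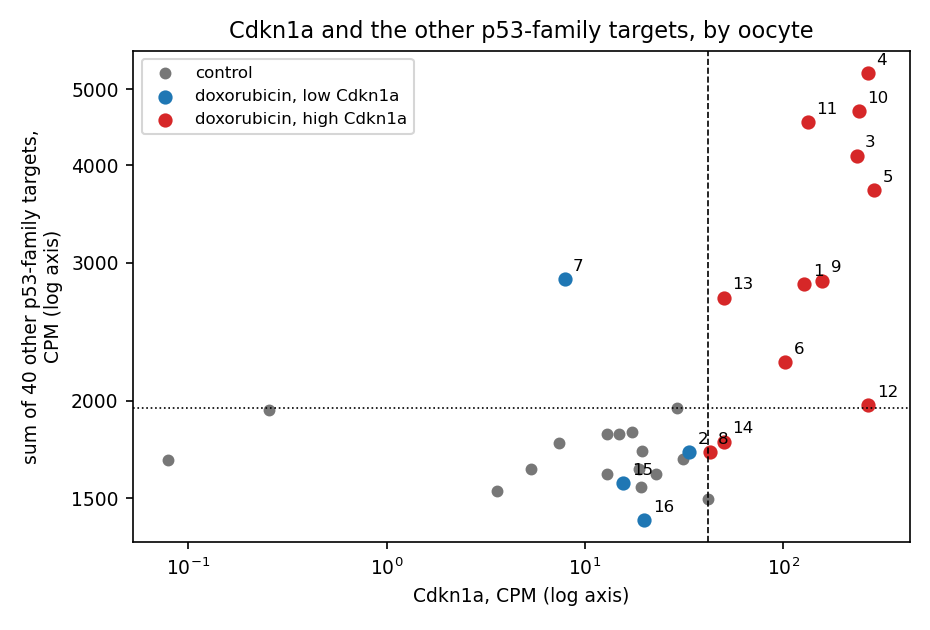
Cdkn1a (x, CPM, log axis) against the summed CPM of the 40 other p53-family targets (y, log axis) in control and doxorubicin oocytes. Numbers are doxorubicin oocyte numbers, and the dashed and dotted lines are the highest control values, 42.0 and 1958 CPM. Oocyte 7 stands alone at the upper left, with 7.90 CPM of Cdkn1a and a target sum of 2860 CPM, while oocytes 8 and 14 sit beside the control cells.

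Over the 16 doxorubicin oocytes, log2 Cdkn1a and the log2 target sum had a Pearson correlation of 0.65 and a Spearman rho of 0.65. Without oocytes 7 and 15, the 2 cells farthest from the median of Cdkn1a, the coefficients over 14 cells were 0.78 and 0.74, and without oocyte 7 alone they were 0.80 and 0.79. Within the 12 high-set cells they were 0.66 and 0.59. The cells share their total count as denominator, and the coefficients are descriptions with no test. Set against the sum of the other targets, Cdkn1a ranked 14 of 34 genes by rho, behind Phlda3 (0.90), Eda2r (0.86), Dcxr (0.85), Ccng1 (0.82) and Mdm2 (0.80), among others. Over all 16 cells, Cdkn1a was thus not the p53-family target that moved most closely with the rest. The ranking was not repeated without oocyte 7, where the rho of Cdkn1a was 0.79.

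The number of targets above every control oocyte was also counted cell by cell. Of the 40 targets, 35 had at least 5 CPM in control, low-set or high-set sums, a filter that 11485 genes passed. Among these 35, oocyte 7 had 12 above the highest control oocyte, beside 11.8% of all genes in that cell. Oocyte 15 had 1, Apaf1 (7.18% of all genes), oocyte 16 had 0 (5.39%) and oocyte 2 had 0 (5.74%). Oocytes 8 and 14 had 1 each, beside 8.08% and 7.77% of all genes. A control oocyte set against the other 15 had 0 to 6 of the 35, and 6.23% of all genes on average.

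The other 10 high-set oocytes had between 6 and 18 of the 35. Oocyte 13 had 14 (6.89% of all genes), oocyte 6 had 6 (6.52%), no more than the highest control oocyte although its sum was above the control range, oocyte 1 had 11 (6.64%) and oocyte 3 had 16 (9.18%). Oocyte 11 had 16 (11.1%), oocyte 10 had 16 (11.4%), oocyte 4 had 18 (11.8%) and oocyte 5 had 15 (9.82%). Oocytes 9 and 12, which held the most stroma and much granulosa RNA, had 14 and 11 beside 17.9% and 14.4% of all genes, the largest overall shares. The filter let a gene in through the group where it was high, so these counts describe the cells and carry no test.

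**Figure D3:**
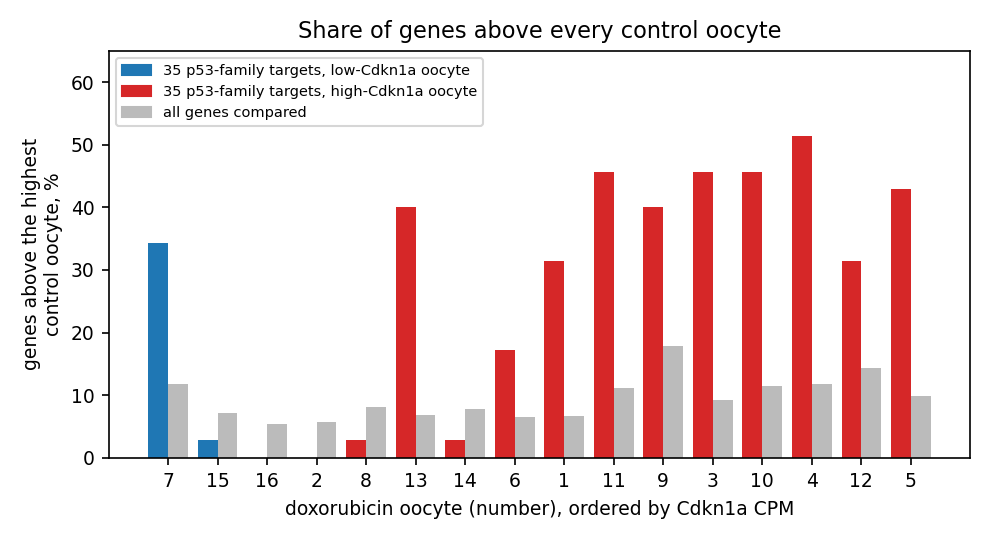
Share of 35 p53-family targets (coloured) and of all 11485 genes compared (grey) whose CPM was above the highest of 16 control oocytes, for each doxorubicin oocyte ordered by Cdkn1a (y in percent). Oocyte 7 of the low set (12 of 35) resembles the right-hand cells, and oocytes 8 and 14 of the high set (1 of 35 each) resemble the rest of the low set.

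Between the sets, summed counts were compared as the log2 ratio of high-set over low-set CPM. Over 11286 genes with at least 5 CPM in either set and without Cdkn1a, the median ratio was 0.004, with quartiles of -0.278 and 0.364. Higher in the high set were 50.3% of these genes. At least 2-fold higher in the high set were 1261 genes (11.2%) and at least 2-fold lower 512 genes (4.54%). Of the p53-family targets, 35 of 40 passed the filter, with a median log2 ratio of 0.72 (medians of the genes' limits 0.67 and 0.77). Leaving out 1 cell moved this median between 0.56 and 0.99. Of these 35 targets, 29 were higher and 6 lower, 16 were at least 2-fold higher and 0 at least 2-fold lower. Ephx1, Ptprv, Pidd1, Zfp385a and Zmat3 passed the filter through the high set alone, so it fixed their direction. Complete separation of the sets was seen for 0 of the 35.

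Among the genes of the p53 feedback loop, Mdm2 and Ccng1 differed most. Mdm2 was 540 CPM in oocyte 7, 155 in oocyte 15, 75.2 in oocyte 16 and 189 in oocyte 2, and had a lowest, median and highest value of 130, 722 and 1898 CPM in the high set. Control oocytes ranged from 111 to 207 CPM, so 8 of 12 high-set cells were above every control, and oocyte 16 was below every control. The log2 ratio was 1.71 (1.68 to 1.74), and it was 2.48 without oocyte 7. Ccng1 was 98.9, 29.2, 37.4 and 20.2 CPM in oocytes 7, 15, 16 and 2, and between 26.6 and 237 CPM in the high set, against at most 63.8 in a control oocyte. Its ratio was 1.39 (1.33 to 1.46), and 2.14 without oocyte 7.

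Other members of the loop differed little. Trp53inp1, which promotes p53 phosphorylation, exceeded every control in 9 of 12 high-set cells and in oocyte 7, with 111 CPM there, and its log2 ratio was only 0.16. Ppm1d, a phosphatase that shuts down damage signalling, had a ratio of 0.24, and 0.61 without oocyte 7. Rchy1, the ligase PIRH2, went the other way: 8 of 12 high-set oocytes lay below every control oocyte and 0 of 4 low-set oocytes did, for a ratio of -0.22 (-0.26 to -0.18).

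Of the 4 groups of p53-family targets, the arrest and stress genes had the highest median, 1.11. In the high set 14 of 15 were higher, beside 50.3% of all genes. Some of these, such as Ephx1 and Ptprv, passed the filter through the high set alone. Phlda3, an inhibitor of AKT at the membrane, was 0 CPM in oocytes 15 and 16, 8.02 in oocyte 2 and 49.9 in oocyte 7. In the high set it ranged from 0 CPM in oocyte 8 to 114 CPM in oocyte 4, with a median of 38.6, and 10 of 12 cells exceeded the highest control value of 9.42 CPM. The exceptions in the high set were oocytes 8 and 14. The log2 ratio of 1.56 (1.45 to 1.67) became 3.81 without oocyte 7.

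Sesn2, a sestrin that restrains mTORC1, showed the weight of that cell most. It was 0.0931 CPM in oocyte 15, 13.01 in oocyte 16, 0.0716 in oocyte 2 and 210 in oocyte 7, against at most 36.5 CPM in a control oocyte. The high set ran from 0.0918 to 307 CPM with a median of 59.4. Its ratio was 0.53 (0.47 to 0.59) and rose to 4.53 without oocyte 7. The related Sesn1 did not share this: it was 17.8 to 26.8 CPM in the low set and 11.5 to 90.9 CPM in the high set, and no doxorubicin oocyte exceeded the highest control at 95.1 CPM.

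Sfn, which encodes the checkpoint protein 14-3-3 sigma, was above the highest control (8.97 CPM) in 8 of 12 high-set cells and in oocyte 7 (42.4 CPM). Its ratio of 1.24 was 2.98 without oocyte 7 and 0.61 without oocyte 5. Dcxr, a carbonyl reductase, had a ratio of 0.72 and Fdxr, the mitochondrial ferredoxin reductase, one of 0.98, with 6 of 12 high-set cells above control for each. Plk2, a polo-like kinase, varied from 0 to 367 CPM within the high set. Oocytes 1, 3 and 8 had 0 CPM of it and oocyte 11 had 367. Its log2 ratio of 1.58 was 3.01 without oocyte 7, 0.88 without oocyte 11 and -0.93 among the oocytes with few granulosa and stroma transcripts. Doxorubicin granulosa cells held 657 CPM of Plk2.

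Ephx1, the microsomal epoxide hydrolase, showed the largest ratio of the list, 7.64, but on 3 counts in the whole low set, so that its interval ran from 6.09 to 9.92. Its high-set values came from few cells: oocytes 6, 9, 10, 11 and 12 had 16.7, 26.4, 33.98, 32.6 and 42.1 CPM, and 5 high-set oocytes had 0. Those are also the 5 high-set oocytes with over 200 CPM of granulosa or of stroma markers, and doxorubicin granulosa cells held 168 CPM of Ephx1. Ptprv, a transcribed pseudogene in RefSeq, had a ratio of 5.33 (4.78 to 5.95), or 6.93 without oocyte 2, and was highest in oocyte 12 at 104 CPM, but only 2 high-set cells exceeded every control. The part that RNA of other cells has in these values was not tested.

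Btg2, an antiproliferative gene, had a ratio of 1.498, and 2.12 without oocyte 2, but no doxorubicin oocyte was above the highest control at 345 CPM. Gadd45a, a damage-inducible arrest gene, had similar summed levels, 27.4 CPM in control oocytes, 26.0 in the low set and 27.6 in the high set. By cell it ran from 13.4 to 66.5 CPM in control, 18.7 to 36.3 in the low set and 8.63 to 65.4 in the high set. Tigar, which redirects glucose away from glycolysis, was slightly lower in the high set, with a ratio of -0.42 (-0.51 to -0.33). Plk3 was low in all oocytes, at most 33.1 CPM in control and 30.5 CPM in the high set.

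Of the death genes 9 of 10 were higher in the high set (50.3% of all genes), with a median ratio of 0.56. Among them Pidd1 passed the filter through the high set alone. Bbc3 was 18.9 CPM in oocyte 7, 0 in oocytes 15 and 16 and 5.44 in oocyte 2, with lowest, median and highest values of 0, 19.5 and 33.9 CPM in the high set. Above the highest control (6.55 CPM) were 9 of 12 high-set cells and oocyte 7. The log2 ratio was 1.51 (1.34 to 1.68) and 3.08 without oocyte 7. Bbc3 therefore separated oocyte 7 from the other 3 low-set cells in the same way as Mdm2 and Phlda3.

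Pmaip1 had values of 26.5, 3.35, 0.107 and 7.73 CPM in oocytes 7, 15, 16 and 2, and between 0 and 72.2 CPM in the high set. Its highest control value was 8.06 CPM, exceeded in 6 of 12 high-set cells and in oocyte 7, and its ratio was 1.21 (1.07 to 1.35), or 2.46 without oocyte 7. Eda2r, a receptor of the TNF receptor family, was nearly absent in control oocytes, at most 5.43 CPM. It was 82.2 CPM in oocyte 7, 0 in oocytes 15 and 16 and 4.94 in oocyte 2, and reached 82.9 CPM in the high set, where oocytes 8 and 14 had 0. Its ratio of 0.57 (0.48 to 0.67) became 4.09 without oocyte 7.

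Oocyte 13, with many raised targets, lacked Eda2r (0.0923 CPM), and oocyte 12 had 1.53 CPM of it and 0 of Pmaip1, so the cells of the high set did not share 1 profile. Pidd1, which assembles the caspase-2 platform, had 0 to 2.44 CPM in the low set and 0 to 137 CPM in the high set, with a ratio of 5.66 (5.15 to 6.22). Without oocyte 7 it was 8.58, with the low set put at 3 counts. Its highest control value was 26.4 CPM and only 3 high-set cells were above it.

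For Aen and Perp oocyte 7 was within the control range. Aen, an apoptosis-enhancing nuclease, was 137, 119, 97.6 and 127 CPM in oocytes 7, 15, 16 and 2, all below the highest control value of 138 CPM. In the high set it was 124 to 231 CPM with a median of 178, and 10 of 12 cells were above every control, including oocytes 8 and 14 at 158 and 189 CPM. Its log2 ratio was 0.55 (0.51 to 0.59). Aen was the 1 target of the 35 that exceeded every control in oocytes 8 and 14.

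Perp, a membrane protein of p53-induced death, was 13.4 to 22.2 CPM in the low set, within the control range of 0 to 41.3 CPM, and above it in 7 of 12 high-set cells, with a ratio of 1.495. Siva1, a TNF-receptor-associated death factor, had a ratio of 0.47 and was above the highest control in 6 high-set cells and in oocyte 7. Bax, the pore-forming effector, was nearly level at 111 CPM in control, 124 in the low set and 130 in the high set, and Ei24 had a ratio of 0.36. Apaf1, the core of the apoptosome, was the only death gene lower in the high set, at 6.43 against 10.1 CPM.

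The repair genes had a median ratio of -0.16, and 2 of 5 were higher, beside 50.3% of all genes. Ddb2, a recognition factor of ultraviolet damage, was 165 CPM in the high set and 185 CPM in the low set, and 5 high-set cells were below every control oocyte. Rrm2b, the p53-inducible ribonucleotide reductase subunit, was lower with a ratio of -0.72 (-0.85 to -0.60). Polk, a bypass polymerase, had -0.26 and Xpc, which senses DNA distortion, 0.31. Ercc5, the repair endonuclease XPG, had 1.25 (1.17 to 1.33), with 3.01 CPM in oocyte 7 and 35.0 to 49.6 in the other low-set cells against 35.4 to 180 CPM in the high set.

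**Figure D4:**
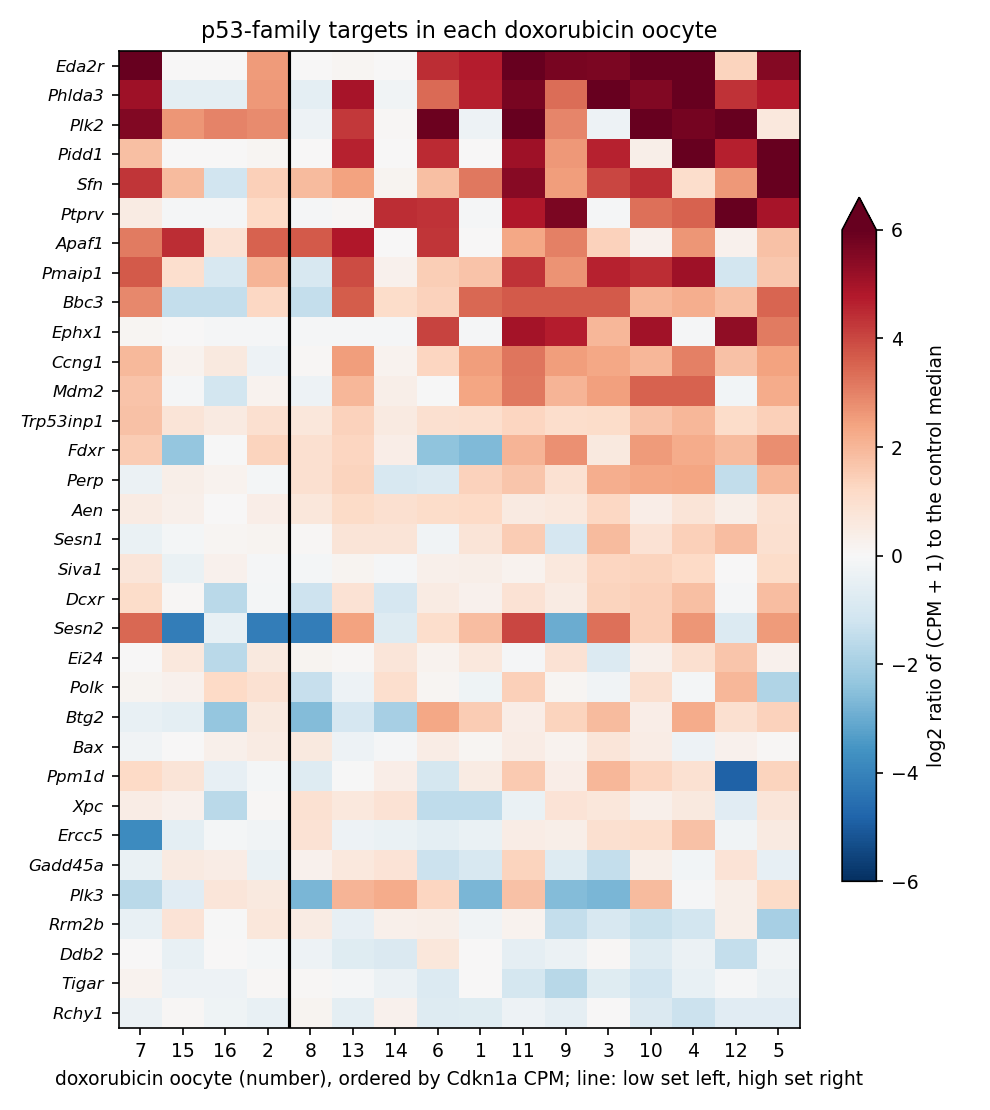
Heat map of the 33 p53-family targets with at least 10 CPM in either set (rows, sorted by mean) in the 16 doxorubicin oocytes (columns, ordered by Cdkn1a). Colour is the log2 ratio of CPM + 1 to the median of the 16 control oocytes, capped at 6 in either direction, and the black line separates the low set from the high set. The column of oocyte 7, at the far left, is as red at Eda2r, Phlda3 and Plk2 as columns on the right, while oocytes 8 and 14 are pale there.

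Genes outside the p53 list that separated the sets completely were few. Nonoverlapping and higher in the high set were 2 of 11286 genes (0.0177%), and nonoverlapping and lower were 8 (0.0709%). The number that an arbitrary split of the same sizes would give was not computed, so these counts carry no test. The genes below were named for the separation itself. The 2 higher genes were Nfe2l2 and Rxra. Nfe2l2, which encodes the oxidative stress factor NRF2, was 12.1, 12.3, 6.61 and 9.88 CPM in oocytes 7, 15, 16 and 2 and 17.8 to 112 CPM in the high set, for a log2 ratio of 2.0 (1.87 to 2.14). Control oocytes ran from 3.81 to 41.5 CPM and thus overlapped both sets. Its highest values, 112, 87.6 and 64.5 CPM, were in oocytes 10, 11 and 9, which had over 200 CPM of granulosa or of stroma markers. The other high-set cells had 17.8 to 36.2 CPM. Granulosa cells held 428 CPM of Nfe2l2 after doxorubicin and 353 CPM in control. The part that RNA of other cells has in its values was not tested. Rxra, a retinoid X receptor, was 14.1 to 21.9 CPM in the low set and 23.1 to 99.2 CPM in the high set, and 0 to 89.1 CPM in control.

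Of the 8 lower genes, 6 had a median of at least 20 CPM in the low set. Bub1b, the spindle checkpoint kinase BUBR1, was 135, 163, 144 and 132 CPM in oocytes 7, 15, 16 and 2. Its lowest, median and highest high-set values were 23.0, 77.8 and 124 CPM, with 5 of 12 cells below every control oocyte (67.1 to 278 CPM). Its log2 ratio was -0.995 (-1.04 to -0.95). Here the low set lay within the control range and the high set below or in its lower part.

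Gas2, a growth-arrest-linked cytoskeletal gene, was 18.7 to 32.3 CPM in the low set and 0 to 15.95 CPM in the high set, with 3 of 4 low-set cells above and 7 of 12 high-set cells below all controls (6.21 to 23.4 CPM), for a ratio of -2.02 (-2.14 to -1.89). Acat1, the mitochondrial acetyl-CoA acetyltransferase, was 548 to 690 CPM in the low set and 337 to 521 CPM in the high set. Ccdc50 (111 to 136 against 31.9 to 104 CPM), Dph6, of diphthamide synthesis (51.4 to 89.0 against 13.3 to 49.7 CPM), and Hddc3 (115 to 161 against 27.0 to 113 CPM) completed the group. With 4 cells on one side these gaps depend on single cells: the count of higher genes became 18 without oocyte 2, and that of lower genes 38 without oocyte 16.

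**Figure D5:**
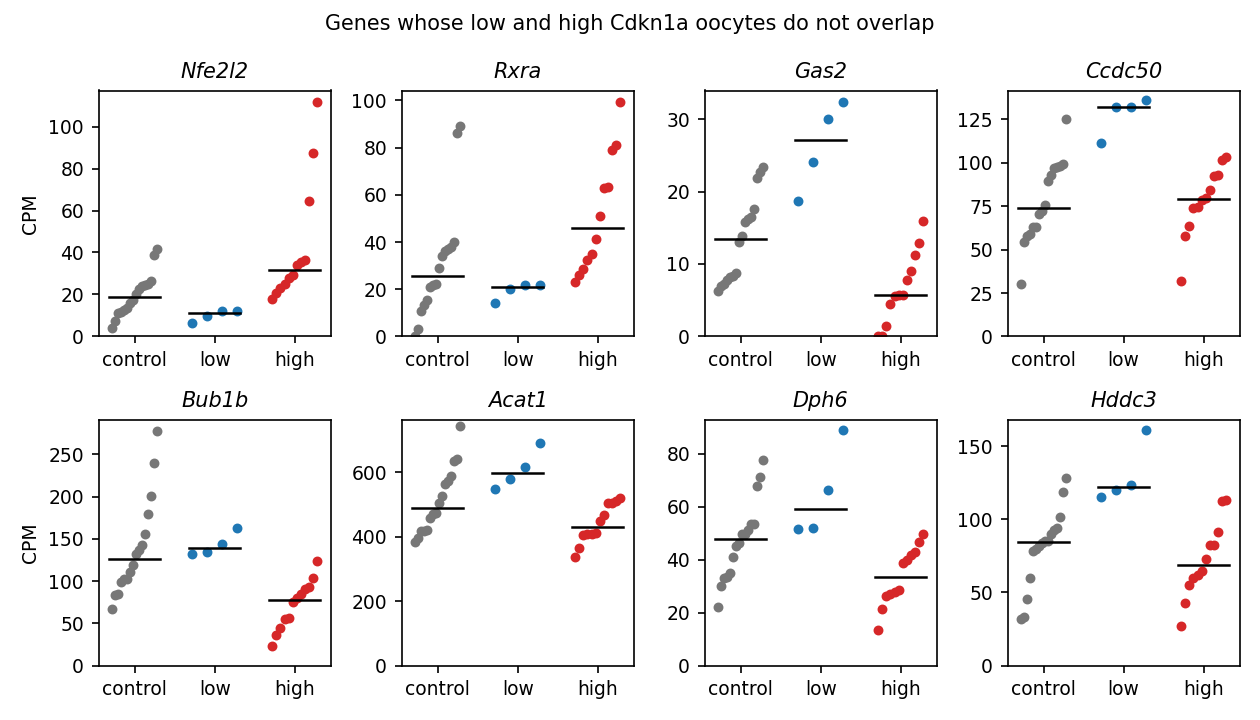
CPM of the 8 named genes whose low-Cdkn1a (blue) and high-Cdkn1a (red) oocytes do not overlap, beside the control oocytes (grey). Each point is a cell and each line a median. Nfe2l2 and Rxra are lower in the low set than in the high set, the other 6 genes are lower in the high set, and control cells overlap with the doxorubicin cells in every panel.

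Some genes placed the whole low set outside the control range. All 4 of its cells were above the highest control oocyte in 9 of 11485 genes (0.0784%) and below the lowest in 4 (0.0348%). The number expected of any 4 cells was not computed, and the genes named below were picked by these conditions. In the high set, with 12 cells to satisfy, no gene met either condition. Hprt, a purine salvage enzyme, was 52.6 to 61.5 CPM in the low set and at most 45.5 CPM in control, and 10 of 12 high-set cells were above that too, so both sets had it higher. Mrps28, of the mitochondrial ribosome, was 75.7 to 101 CPM in the low set against 75 CPM at most in control and was above control in 3 high-set cells.

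Pgm2, a phosphopentomutase, and Tpd52l1 were lower in the high set than in the low set (log2 ratios of -0.91 and -1.11), yet above every control in 7 and 4 of its cells. Ten1, a telomere-end protein, was 61.5 to 116 CPM in the low set and at most 61.2 CPM in control. Arrdc2, an arrestin-domain gene, was 10.8 to 72.0 CPM in the low set, below the lowest control at 78.4 CPM, and 54.8 to 173 CPM in the high set. Map4k5, a kinase upstream of JNK, was 17.1 to 28.4 CPM in the low set, below the control minimum of 36.3 CPM, with 6 of 12 high-set cells below it as well. Fcho1, an endocytosis gene, lay below the control minimum of 86.5 CPM in all 4 low-set and in 7 high-set cells.

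Genes that earlier results of these data had shown to differ between doxorubicin and control oocytes were set beside the split. Fermt3, an integrin-binding kindlin, was at most 7.29 CPM in control and exceeded that in 11 of 12 high-set and 3 of 4 low-set cells, with 248, 0, 7.89 and 17.6 CPM in oocytes 7, 15, 16 and 2. Ifitm10 was 163, 0.0931, 3.63 and 10.8 CPM in the same cells and reached 861 CPM in the high set, where oocytes 8, 12 and 14 stayed under the control maximum of 18.3 CPM. D630023F18Rik was 46.1 CPM in oocyte 7 and at most 2.51 in the other low-set cells, and up to 260 CPM in the high set. The ratios of these 3 genes, 2.06, 2.57 and 2.84, were 5.01, 5.69 and 6.46 without oocyte 7. Pik3cd, a PI3-kinase subunit, was lower in both sets, at 15.03 CPM in the low set and 14.4 CPM in the high set against 73.4 CPM in control, and 3 of 4 low-set and 9 of 12 high-set cells were below every control oocyte. Its log2 ratio between the sets was -0.06 (-0.19 to 0.06), and 1.01 without oocyte 2, which had 33.3 CPM, the most of the low set.

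Of the p53 family members themselves, Trp63 and Trp53 overlapped widely between the sets. Trp63, which encodes p63, was 77.01 to 145 CPM in the low set and 40.9 to 147 CPM in the high set, and its summed levels of 91.4 and 91.2 CPM gave a ratio of 0.00 (-0.05 to 0.05). Trp53 was 69.7 CPM in the low set and 85.5 CPM in the high set, against 62.0 CPM in control. Chek2, the kinase that activates p63 in damaged oocytes, had a ratio of 0.04 (-0.02 to 0.11). The list of the family and its activating kinases had a median of 0.04, with 8 of 13 genes higher, beside 50.3% of all genes. At least 2-fold higher was 1 of the 13, beside 11.2% of all genes.

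That 1 gene was Trp73, which encodes p73 and was picked out after its values were seen. Trp73 passed the filter through the high set alone. It was 14.3 CPM in oocyte 7 and 0 to 0.107 CPM in the other low-set cells, and at most 14.9 CPM in control. In the high set it had a median of 22.8 CPM and was above every control in 7 of 12 cells, with 242 CPM in oocyte 5, 137 in oocyte 6 and 134 in oocyte 4. Oocytes 11, 12 and 14 had 0 CPM. Its log2 ratio was 4.08 (3.86 to 4.30), and 9.53 without oocyte 7, with the low set put at 3 counts. Transcript levels say nothing of the activity of these proteins.

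The median ratio of the JNK pathway list was 0.19 (0.06 to 0.34), and 16 of its 25 genes were higher, beside 50.3% of all genes. Mapk8, which encodes JNK1, was 10.4 CPM in the low set and 11.9 CPM in the high set, and Map2k7, a kinase that activates JNK, was 15.7 and 13.5 CPM. Jun was 0.244, 11.4, 0.640 and 90.6 CPM in oocytes 7, 15, 16 and 2 and 0 to 278 CPM in the high set, with a control range of 0.0829 to 187 CPM. The sets overlapped for all 3 genes. Without oocyte 2 the log2 ratios were -0.21 for Mapk8, 0.11 for Map2k7 and 4.03 for Jun, against 0.19, -0.21 and 1.13 with it.

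For the immediate early genes the median was 1.05 (0.98 to 1.15), with 15 of 20 higher, beside 50.3% of all genes. Their sum was distributed unlike that of the p53 targets. It was 188, 261, 182 and 1430 CPM in oocytes 7, 15, 16 and 2, and over 1000 CPM in the high set only in oocytes 6, 9, 10, 11 and 12, at 2487, 2112, 1087, 2517 and 2778 CPM. Control oocytes reached 3051 CPM. Of those 5 cells, 9, 11 and 12 held 2277 CPM of granulosa markers or more, and oocytes 6 and 10 had 551 and 472 CPM of stroma markers. Oocyte 2 had 531 CPM of stroma markers. Among the 7 high-set and 3 low-set oocytes under 200 CPM of both, the list median was 0.30. Over all cells but oocyte 2 it was 2.67. Doxorubicin granulosa cells had a median immediate early sum of 11230 CPM.

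Because granulosa cells hold much Cdkn1a after doxorubicin (1161 CPM summed, with a median of 649 CPM over 13 cells), the marker values stand beside the split itself. Of the 19 granulosa markers 8 passed the filter, most of them through the high set alone, so their direction was largely fixed by it. Wt1 (2.17 against 2.18 CPM) and Nr5a2 (1.15 against 2.48 CPM), which did not pass, were not higher in the high set. Inha, the inhibin alpha gene, was 2490 CPM in oocyte 9, 2090 in oocyte 11 and 1670 in oocyte 12, and 21.0 CPM in the low set. Foxl2, the defining granulosa factor, was 18.3, 15.6 and 0 CPM in the same 3 cells. The markers at 0 CPM in the low set were 4: Inhba, Inhbb, Lgr5 and Fshr.

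Stroma markers had a median ratio of 1.06, with 5 of 7 higher in the high set, beside 50.3% of all genes. Among oocytes under 200 CPM of granulosa and of stroma markers, the p53-target median was 0.64, and the target sum was above the highest such control oocyte in 5 of 7 high-set and 1 of 3 low-set cells. Oocyte 12 combined 269 CPM of Cdkn1a and 2277 CPM of granulosa markers with 145 CPM of Mdm2, within the control range. Whether granulosa RNA contributed to its Cdkn1a was not tested.

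Other gene groups had medians between 0.00 and 0.17. Over all genes the median was 0.004, and 50.3% were higher in the high set. The BCL2 family and caspases had a median of 0.08 with 11 of 20 higher. Their summed CPM exceeded the highest control oocyte (905 CPM) in 10 of 12 high-set cells and in 2 of 4 low-set cells. Those low-set cells were oocytes 2 and 7, and the difference was not tested. Genes of doxorubicin targets and handling (topoisomerases, exporters and reductases) had a median of 0.17, with 13 of 17 higher. Stress genes and chaperones had a median of 0.01 (8 of 15 higher) and ribosomal proteins 0.00 (41 of 81 higher).

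Oocyte markers had a median of -0.09 and 9 of 20 were higher, beside 50.3% of all genes. Zp3, of the egg coat, was 1324 to 3071 CPM in the low set and 463 to 7155 CPM in the high set. Gdf9, the oocyte growth factor, was 627 and 541 CPM and Kit, the receptor for kit ligand, 663 and 548 CPM in the low-set and high-set sums, though Kit was slightly higher in the high set without oocyte 2 (log2 ratio 0.09). Foxo3, the brake on primordial follicle activation, was 10.0 to 38.2 CPM in the low set and 15.3 to 61.1 CPM in the high set, with a ratio of 0.86 (0.76 to 0.96). All of these lay within the control range in every low-set cell except Zp3 in oocyte 7, at 1324 CPM against a control minimum of 1445 CPM.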

How the data were processed

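Single oocytes and granulosa cells were sequenced with a SMART-seq kit, a full-length method for low input, per the labels' protocols. The authors deposited 1 table of estimated counts for 23927 gene rows and 61 cells, in which 32.3% of nonzero values are not whole numbers (tolerance 1e-06). The submitters' processing notes name Partek, Bowtie2, HISAT2, DESeq2 and mm10, without roles or order; what was filtered is not given in the sources used here. Rows whose symbols had become dates (22 rows, 0.144% of counts) stayed in the totals.

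The estimated counts were rounded and divided by the column total to give CPM. Counts were summed over each set, and a set under 3 counts was put at 3 counts. Ratios have exact conditional binomial (Clopper-Pearson) intervals and levels exact Poisson ones. List medians and counts of genes use genes with at least 5 CPM in either set (or, against control, in any of the 3 groups). Summed CPM of a list uses all its genes with a row, and levels of single markers are given without this filter. A gene does not overlap where every cell of one set exceeds every cell of the other. The members and lists were chosen with earlier results of these data known. Named genes are the p53-family targets with at least 10 CPM in either set, genes that separated the sets or all low-set cells from control with a median of 20 CPM or more on the higher side, and a fixed panel of 14. Promoters came from the RefSeq table of GRCm38.p6, and the marker limit was 200 CPM. The calculation was tested on simulated data. Alternatives were other ways of combining cells, edgeR and DESeq2 scaling factors, other filters, other Cdkn1a limits, cells with few other markers and leaving out each cell. Python 3.11.15, numpy 2.4.6, pandas 2.3.3, scipy 1.17.1, matplotlib 3.10.9, R 4.3.3, edgeR 4.0.16 and DESeq2 1.42.0 were used.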

Additional observations from a re-analysis of the deposited data

Results flagged for a closer look

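In the 4 low-Cdkn1a oocytes, 76 gene levels and list sums were screened for a cell far from the other 3, by whether its gap to the nearest cell exceeded Dixon's 95% critical share of the whole range. For normally distributed values chance would flag about 1 in 20 such groups. That rate cannot be applied here, because several genes were nearly absent in some cells and high in others. Some genes had also been named for gaps between these same cells and the rest. The number expected by chance is therefore unknown, and the flags carry no test. The screen flagged 14 values. Of these, 9 were the highest value in oocyte 7: Plk2 (55.7 CPM), Sesn2 (210 CPM), Phlda3 (49.9 CPM), Eda2r (82.2 CPM), Pidd1 (2.44 CPM), Tpd52l1 (48.2 CPM), Fermt3 (248 CPM), Ifitm10 (163 CPM) and D630023F18Rik (46.1 CPM). In oocyte 2, Jun (90.6 CPM), the immediate early sum (1430 CPM) and the stroma marker sum (531 CPM) were the highest, and Ccdc50 (111 CPM) was the lowest. In oocyte 16, Trp63 (145 CPM) was the highest. Genes of 1 cell are not independent of each other.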

How the results depend on the processing

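The sets hold 12 and 4 cells with no animal named, so 1 low-set cell can decide a value, and intervals cover counting error only. No paired analysis was possible because no test was made and equal cell numbers do not link cells. Of 1472 values of 64 named genes under the alternatives, 843 stayed within the counting interval of the main value. Opposite in sign were 49 values in 19 genes, of which 21 arose without 1 cell. Only 2 genes with a main ratio of at least 2-fold were among them, Plk3 (-0.17 with the limit at 2 times the highest control) and Plk2 (-0.93 among oocytes with few granulosa and stroma transcripts). The cause was not tested.

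The p53-target median of 0.72 was 0.78 with DESeq2 factors, 0.98 and 0.65 with filters of 1 and 20 CPM, 0.58 and 0.94 with the limit at the second highest and at 2 times the highest control, 0.64 among oocytes with few granulosa and stroma transcripts, and 0.56 (without oocyte 5) to 0.99 (without oocyte 7) over leaving out 1 cell. Genes at least 2-fold higher and lower were 2699 and 1180 with the filter of 1 CPM and 444 and 151 with that of 20 CPM, and 769 were lower among oocytes with few other markers. Leaving out 1 cell gave 1201 to 1557 higher and 521 to 686 lower.

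Nonoverlapping higher genes were 4 with TMM factors and 5 with DESeq2 factors, 16 and 8 with the second-highest and 2-times limits, and 117 among oocytes with few other markers. Lower ones were 27 with the second-highest limit and 145 among oocytes with few other markers, where only 7 and 3 cells had to separate. Leaving out 1 cell gave 2 to 18 and 8 to 38. The target sum exceeded control in 5 high-set and 1 low-set cells among those oocytes and in 2 low-set cells with the 2-times limit, and in 9 to 10 and 0 to 1 cells over leaving out 1 cell.

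With the cells' mean CPM, the medians were 1.28 for immediate early and 0.04 for stress genes. With the cells' medians they were 0.98 for immediate early, 0.03 for drug handling, -0.03 for stress and -0.04 for ribosomal genes. TMM factors gave drug handling 0.19, ribosomal 0.03 and oocyte markers -0.07. DESeq2 factors gave the p53 family and activators 0.10, drug handling 0.22, stress 0.06, ribosomal 0.06 and oocyte markers -0.04. Oocyte markers were at -0.03 with either filter, and with 20 CPM the JNK pathway was at 0.38 and drug handling at 0.08.

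With the second-highest limit the JNK pathway was at 0.44, immediate early genes at 2.83, the BCL2 family at 0.40, stress at -0.03, ribosomal at -0.06 and oocyte markers at 0.04. With the 2-times limit the p53 family and activators were at -0.05, immediate early at 1.34, drug handling at 0.36, stress at 0.28, ribosomal at 0.22 and oocyte markers at 0.02. Among oocytes with few other markers the JNK pathway was at 0.40, immediate early at 0.30, the BCL2 family at 0.30, drug handling at 0.02, stress at -0.20, ribosomal at -0.23 and oocyte markers at 0.15. Leaving out 1 cell gave -0.03 to 0.11 for the p53 family and activators, 0.16 to 0.41 for the JNK pathway, 0.76 to 2.67 for immediate early genes, 0.00 to 0.48 for the BCL2 family, 0.13 to 0.20 for drug handling, -0.02 to 0.16 for stress, -0.07 to 0.08 for ribosomal and -0.15 to 0.03 for oocyte markers. List medians near 0 thus changed sign between alternatives.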

Other observations

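Over the 16 doxorubicin oocytes, the rho of 6995 genes with Cdkn1a had a median of -0.05 and quartiles of -0.26 and 0.17. The most alike were Suv39h1 (0.83), a histone methyltransferase of heterochromatin, Nfe2l2 (0.80), Sap30 (0.79), Uvrag (0.79) and Gstm6 (0.79), and the least alike were Rps6kc1 (-0.87), D10Wsu102e (-0.87), Ccdc50 (-0.87), Nup50 (-0.84) and Nipsnap2 (-0.84). These genes are the extremes of many and were named for that, and the cells share library preparation and the total count as denominator.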
